A study of Rattus norvegicus with 11 samples.

Results

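The 9 genes described here encode the cytochrome P450 enzymes of renal arachidonic acid metabolism and the epoxide hydrolases that act after them. They are Cyp4a1, Cyp4a2, Cyp4a3 and Cyp4a8 (omega-hydroxylases), Cyp2c11, Cyp2c23 and Cyp2j4 (epoxygenases), and Ephx1 and Ephx2 (epoxide hydrolases). Every non-control probe that carried one of these names or its RefSeq identifier was taken. This gave 11 of 30367 probes, and 9 of the 15168 genes named on the array, with a pair of probes each for Cyp4a8 and Cyp2j4. All 11 were well above background on all 11 arrays and none was saturated, so all entered the test beside the other probes that passed the filter, 28489 in all.

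The probes were read on arrays of renal cortex RNA from Sprague Dawley rats. DM+RYGB (2 arrays) were rats made diabetic with streptozotocin, a toxin of pancreatic beta cells that gives a model of type 1 diabetes, and then given Roux-en-Y gastric bypass (RYGB), in which a small gastric pouch is joined directly to the jejunum. DM+Sham (3 arrays) were diabetic rats with a sham operation, Control+RYGB (3 arrays) were non-diabetic rats with the bypass, and Control+Sham (3 arrays) were non-diabetic rats with the sham operation. Surgery took place 4 weeks after diabetes was induced, and cortex was taken 4 weeks after surgery. The labels give neither the sex of the rats nor whether replicates were separate animals, so p-values measure only the spread between these samples, which may be technical.

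The kidney oxidises arachidonic acid, once phospholipases have freed it from membranes, along rival P450 routes. CYP4A enzymes hydroxylate its terminal carbon and form 20-HETE, an eicosanoid that constricts renal arterioles and inhibits sodium transport in the proximal tubule and thick ascending limb. CYP2C and CYP2J epoxygenases form epoxyeicosatrienoic acids, which relax renal vessels and lower sodium reabsorption, and epoxide hydrolases turn these into diols that are mostly less active. In rat kidney these enzymes are found mainly in proximal tubule cells. In whole cortex, fewer cells of a type and less RNA per cell cannot be told apart.

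The CYP4A genes lie together on chromosome 5 of the GRCr8 build. Cyp4a8 spans chr5:133938882-133970226, Cyp4a2 spans chr5:134160356-134170908, Cyp4a3 spans chr5:134334396-134352268 and Cyp4a1 spans chr5:134360096-134374233. Cyp2j4 lies on the same chromosome at chr5:116295691-116323219, Cyp2c11 at chr1:246175216-246211445, Cyp2c23 at chr1:252838427-252863081, Ephx1 at chr13:95246079-95275852 and Ephx2 at chr15:44465447-44503157. These are RefSeq gene bounds, and the exon to which each probe is directed was not determined here. RefSeq also lists Cyp4a2l1, a copy of Cyp4a2 between Cyp4a2 and Cyp4a3. Whether the probes for Cyp4a2 and Cyp4a3 each bind one transcript alone was not determined, so the values of both are uncertain to that extent.

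Promoter sequence was available for 7 of the 9 members, in 8 RefSeq entries on GRCr8. Those of the CYP4A cluster are shown so that neighbouring genes of 1 family can be set side by side, and that of Cyp2c11 because its values differed most between the groups. Each sequence is the 250 bases before the annotated transcript start, read 5′ to 3′ on the gene's own strand. Capitals mark AGGTCA, the core hexamer bound by PPAR and other nuclear receptors, or TTCNNNGAA, the site of the STAT5 factors that act after growth hormone. Cyp4a2 is at chr5:134170909-134171158 (minus strand), Cyp4a3 at chr5:134352237-134352486 (minus strand), Cyp4a8 at chr5:133970227-133970476 (minus strand) and Cyp2c11 at chr1:246174966-246175215 (plus strand).
Cyp4a2: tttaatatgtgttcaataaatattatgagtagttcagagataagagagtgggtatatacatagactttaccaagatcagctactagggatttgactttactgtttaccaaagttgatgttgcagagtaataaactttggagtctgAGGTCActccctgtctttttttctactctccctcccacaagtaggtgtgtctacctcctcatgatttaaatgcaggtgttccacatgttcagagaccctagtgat
Cyp4a3: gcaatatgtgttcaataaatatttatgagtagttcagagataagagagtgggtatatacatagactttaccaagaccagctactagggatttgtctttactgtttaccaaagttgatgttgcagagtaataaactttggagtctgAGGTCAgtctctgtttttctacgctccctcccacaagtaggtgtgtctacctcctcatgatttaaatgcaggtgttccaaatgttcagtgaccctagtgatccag
Cyp4a8: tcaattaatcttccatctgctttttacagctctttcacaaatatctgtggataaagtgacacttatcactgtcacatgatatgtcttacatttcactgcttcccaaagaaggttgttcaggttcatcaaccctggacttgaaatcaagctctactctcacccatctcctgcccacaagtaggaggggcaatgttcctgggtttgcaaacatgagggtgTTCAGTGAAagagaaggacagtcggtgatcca
Cyp2c11: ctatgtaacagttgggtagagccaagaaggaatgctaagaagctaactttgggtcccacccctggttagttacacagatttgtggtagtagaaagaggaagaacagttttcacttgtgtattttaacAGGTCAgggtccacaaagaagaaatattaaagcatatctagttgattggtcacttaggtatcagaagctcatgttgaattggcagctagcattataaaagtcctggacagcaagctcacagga
The Cyp4a2 and Cyp4a3 stretches matched at 236 of 245 aligned bases (96.3%), and both hold AGGTCA with its first base 105 bases before the start. The Cyp4a3 start used lies inside the gene bounds given above (chr5:134334396-134352268), so its distance depends on the transcript start used. The Cyp4a8 stretch matched that of Cyp4a2 at 60.1% and that of Cyp4a3 at 60.6% of aligned bases, and it holds a TTCNNNGAA match 32 bases before the start.

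AGGTCA, read on both strands, also stood 123 bases before the start of Cyp2c11 and at 2 places before one of the Ephx1 starts. TTCNNNGAA, which reads the same on both strands, also stood 160 bases before the start of Cyp2j4. The Cyp2j4 window, chr5:116323043-116323292, overlaps the gene bounds given above, and this match lies inside them. Both Ephx1 matches lie inside its gene bounds too, in the window chr13:95263118-95263367. The tandem AGGTCANAGGTCA, which is the hexamer repeated with a spacer base and so overlaps the single motif, was in none of the 8 member windows. Among 33469 rat promoters of the same length, 14.1% held AGGTCA, 7.67% held TTCNNNGAA and 0.0508% held the tandem. These matches describe letters and not binding.

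Levels are log2 processed signals from which the log2 of that array's 75th percentile was taken, and they compare arrays for 1 probe, not probes with each other. DM+Sham 2 and 3, and Control+RYGB 2 and 3, differed by less than the noise between repeated spots, and each pair was counted as 1 sample. The spread of the difference over that noise was 0.283 for the DM+Sham pair. It was 0.947 for the Control+RYGB pair, just under the cut-off of 1. This left 2 DM+RYGB, 2 DM+Sham, 2 Control+RYGB and 3 Control+Sham samples. A probe was called where limma gave an adjusted p under 0.05 and the same sign with the arrays scaled on the 75th percentile, on the median and by quantiles. The standard errors (SE) and adjusted p-values printed are those of the first scaling. The 3 scalings were all asked for because they placed the bulk of the array differently: the median change of all probes for RYGB in diabetic rats was 0.55 on the 75th percentile scale, -0.05 on the median scale and -0.07 on the quantile scale. For the same comparison 79.6%, 37.2% and 37.6% of the probes that passed were higher in these scalings.

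Between 77.7% and 93.5% of probes lay well above background on each array, and the 75th percentile of the signal ranged over arrays between 1541 and 4454. DM+RYGB 2 stood apart by heart muscle transcripts: the summed signal of 8 heart markers, in units of the array's 75th percentile, was 356 on that array and 1.07 on DM+RYGB 1, against at most 0.951 on the other 9. The summed signal of 25 proximal tubule markers was 208 to 356 in DM+RYGB, 298 to 382 in DM+Sham, 493 to 637 in Control+RYGB and 244 to 358 in Control+Sham. Control+RYGB arrays sat at one slide position, used for no other group, so position and group cannot be told apart there. Scanning took 5 days, and neither DM+RYGB nor Control+RYGB shared any of them with Control+Sham.

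RYGB in diabetic rats moved single members of all 3 enzyme classes, and in both directions. Of the 11 probes 6 were called, those for Cyp4a8 and Cyp2c11 higher and those for Cyp4a1, Cyp2c23, Cyp2j4 and Ephx2 lower, against 20.9% of all probes tested (10.2% higher and 10.8% lower). Diabetes in sham rats gave 4 calls, Cyp4a1 higher and Cyp2c11 and both Cyp2j4 probes lower, against 12.7% of all probes (6.23% higher and 6.51% lower). RYGB in control rats also gave 4 calls, Cyp4a8 higher and Cyp2c11, the second Cyp2j4 probe and Ephx2 lower, against 12.1% of all probes (6.74% higher and 5.38% lower). These comparisons share samples, so their counts are not independent. A fit with scan day as a block takes DM+Sham 2 and 3, scanned on different days, as separate samples, and its link between sham and RYGB groups rests on DM+Sham 3, the one sham array scanned on a day with RYGB arrays. In limma with scan day as a block, no probe on the array was called for RYGB in control rats, where 6 of the 11 had an unadjusted p under 0.05, and Cyp4a8, Cyp2c11 and Ephx2 had log2 changes of 3.27, -2.63 and -1.11 (adjusted p = 0.17, 0.17 and 0.22).

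**Figure D1:**
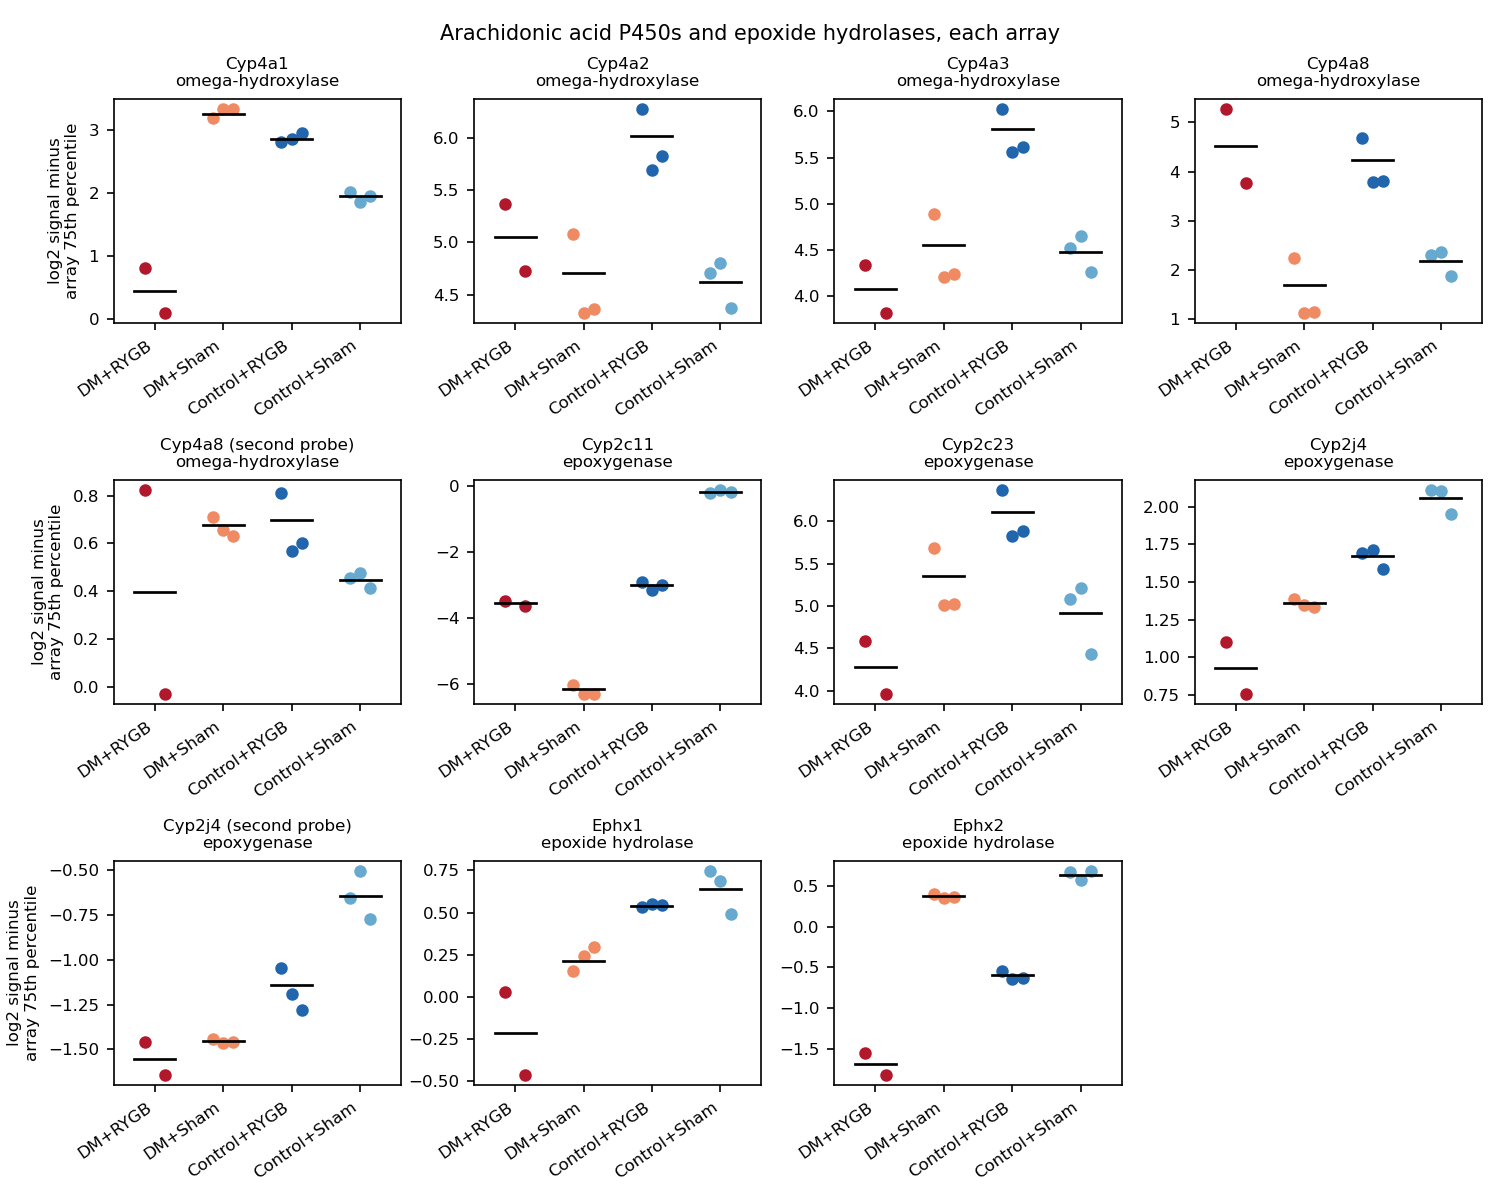
Log2 signal minus the array's 75th percentile (vertical axis) for each of the 11 probes, 1 panel per probe. Dots are arrays, grouped from left to right as DM+RYGB (2), DM+Sham (3), Control+RYGB (3) and Control+Sham (3), and bars mark group means. Cyp4a1 was lowest in DM+RYGB, with means of 0.45 there and 3.25 in DM+Sham, and Cyp2c11 was lowest in DM+Sham, with means of -6.15 there and -0.17 in Control+Sham.

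Among the omega-hydroxylases, Cyp4a1, the family member with the highest turnover of arachidonic acid in the rat, separated all 4 groups. Its log2 level was 0.80 and 0.10 on the DM+RYGB arrays, 3.18, 3.33 and 3.32 on the DM+Sham arrays, 2.80, 2.86 and 2.95 on the Control+RYGB arrays, and 2.02, 1.86 and 1.95 on the Control+Sham arrays. No array of one group lay within the range of another, with DM+Sham highest and DM+RYGB lowest. In sham rats it rose with diabetes, averaging 3.25 ± 0.10 in DM+Sham (SD, n = 2) and 1.95 ± 0.08 in Control+Sham (n = 3), a log2 change of 1.31 (SE 0.20, adjusted p = 0.008) or 2.47-fold. Within the days on which both groups were scanned, the change was 1.32 and 1.37, although with scan day as a block the adjusted p was 0.11. Without both DM+Sham 2 and 3 the change was 1.23 and the adjusted p 0.065.

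After RYGB, Cyp4a1 fell in diabetic rats, while no change was called in control rats. The log2 change was -2.80 (SE 0.22, adjusted p = 5e-04) for DM+RYGB minus DM+Sham, a 6.97-fold lower signal, and -2.45 without DM+RYGB 2. This SE pools the spread of all 4 groups, and with only the groups compared in limma the adjusted p was 0.031. For Control+RYGB minus Control+Sham the log2 change was 0.91 (SE 0.20, adjusted p = 0.023). It was not called, because median scaling gave 0.60 (adjusted p = 0.074) and quantile scaling 0.67 (adjusted p = 0.077). It was called when either DM+RYGB array was left out, although neither array belongs to the groups compared. What part of the fit changed this call was not tested. The difference between these responses was itself called, at -3.71 (SE 0.30, adjusted p = 0.00086). With scan day as a block it was -3.75 with an adjusted p of 0.051. Against Control+Sham, DM+RYGB was lower by a log2 change of -1.49 (SE 0.20, adjusted p = 0.0015), so the level after both treatments lay below that of rats with neither.

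Cyp4a8 showed the opposite pattern to Cyp4a1 in diabetic rats. It encodes a CYP4A enzyme of rat kidney and prostate. Its log2 level by the brighter probe was 5.27 and 3.77 in DM+RYGB, 2.25, 1.13 and 1.14 in DM+Sham, 4.69, 3.79 and 3.80 in Control+RYGB, and 2.30, 2.37 and 1.88 in Control+Sham. Every RYGB array lay above every sham array, whether or not the rats were diabetic, and the DM+RYGB arrays were the furthest apart of any group. The log2 change was 2.83 (SE 0.59, adjusted p = 0.0084), or 7.09-fold, for DM+RYGB minus DM+Sham, and 2.07 (SE 0.54, adjusted p = 0.034), or 4.19-fold, for Control+RYGB minus Control+Sham.

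The responses of Cyp4a8 in diabetic and control rats differed by 0.76 (SE 0.80, adjusted p = 0.53), which was not called and leaves differences of either sign possible. The call in diabetic rats was lost without DM+RYGB 1, where the log2 change was 2.07, and without both DM+Sham 2 and 3, where it was 2.27. With only the groups compared it was lost too (adjusted p = 0.058). The call in control rats was lost without any 1 of the Control+Sham arrays or Control+RYGB 1, where it was 1.62 (adjusted p = 0.19) in the last case. The second Cyp4a8 probe did not repeat the pattern: its log2 level averaged 0.40 ± 0.60 in DM+RYGB (SD, n = 2), 0.68 ± 0.05 in DM+Sham (n = 2), 0.70 ± 0.16 in Control+RYGB (n = 2) and 0.45 ± 0.03 in Control+Sham (n = 3), and none of its 6 comparisons was called. Without DM+RYGB 1 it was called lower in DM+RYGB minus DM+Sham (-0.71, adjusted p = 0.008), opposite to the brighter probe, and also in the interaction (-0.96) and against each control group (-0.73 and -0.48). Which Cyp4a8 sequence each probe covers was not determined.

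Cyp4a2 and Cyp4a3, neighbouring genes whose products both form 20-HETE in rat kidney, were highest in Control+RYGB. The log2 level of Cyp4a2 was 5.37 and 4.73 in DM+RYGB, 5.08, 4.32 and 4.36 in DM+Sham, 6.28, 5.69 and 5.83 in Control+RYGB, and 4.71, 4.80 and 4.37 in Control+Sham. That of Cyp4a3 was 4.33 and 3.82 in DM+RYGB, 4.89, 4.21 and 4.23 in DM+Sham, 6.03, 5.56 and 5.61 in Control+RYGB, and 4.52, 4.66 and 4.26 in Control+Sham. For both genes the Control+RYGB arrays lay above all others, while the other 3 groups overlapped.

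Neither gene differed with diabetes in sham rats, with log2 changes of 0.09 (SE 0.31) for Cyp4a2 and 0.08 (SE 0.27) for Cyp4a3. For Control+RYGB minus Control+Sham the log2 change was 1.40 (SE 0.31, adjusted p = 0.022) for Cyp4a2 and 1.33 (SE 0.27, adjusted p = 0.018) for Cyp4a3. Neither was called, because quantile scaling gave 0.54 (adjusted p = 0.06) and 0.53 (adjusted p = 0.058), although both were called when either DM+RYGB array was left out (adjusted p = 0.019 and 0.016), and Cyp4a3 also without Control+Sham 3 (0.033). For DM+RYGB minus DM+Sham the log2 change of Cyp4a2 was 0.34 (SE 0.34, adjusted p = 0.41), and its sign depended on the scaling, with -0.26 on the median scale and -0.42 by quantiles. That of Cyp4a3 was -0.48 (SE 0.30, adjusted p = 0.2), with -1.09 (adjusted p = 0.016) on the median scale and -1.01 (adjusted p = 0.0048) by quantiles, so it was not called but passed in 2 of the 3 scalings.

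Between the RYGB groups both genes had negative values, of which that of Cyp4a3 was called. In DM+RYGB minus Control+RYGB, Cyp4a3 was lower by a log2 change of -1.73 (SE 0.30, adjusted p = 0.0061). Cyp4a2 had -0.97 (SE 0.34, adjusted p = 0.07), with -1.33 (adjusted p = 0.019) on the median scale and -1.12 (adjusted p = 0.0048) by quantiles. The difference in the response to RYGB between diabetic and control rats was -1.81 (SE 0.40, adjusted p = 0.021) for Cyp4a3, which was called, and -1.05 (adjusted p = 0.15) for Cyp4a2, which was not. The Cyp4a3 interaction was lost without Control+Sham 1 (adjusted p = 0.053), DM+Sham 1 (-1.47, adjusted p = 0.052) or Control+RYGB 1 (-1.59, adjusted p = 0.08), and with scan day as a block (adjusted p = 0.058). Over the 9 samples the levels of the pair had a Pearson correlation of 0.86, a description of points that share arrays and scaling. The difference between the genes was not tested.

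Among the epoxygenases, Cyp2c11, a P450 known from rat liver as a male-typical enzyme under growth hormone control, had the largest changes of the 11 probes in the sham comparison. Its log2 level was -3.46 and -3.62 in DM+RYGB, -6.02, -6.29 and -6.28 in DM+Sham, -2.90, -3.15 and -2.99 in Control+RYGB, and -0.21, -0.12 and -0.18 in Control+Sham. The groups did not overlap, and the 3 Control+Sham arrays stood far above the rest. The log2 change for DM+Sham minus Control+Sham was -5.98 (SE 0.12, adjusted p = 7.1e-06), a 63.3-fold lower signal, with -5.90 and -6.11 within scan days.

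RYGB moved Cyp2c11 in opposite directions in diabetic and control rats. The log2 change was 2.61 (SE 0.14, adjusted p = 0.00018, or 0.031 with only the groups compared) for DM+RYGB minus DM+Sham. It was -2.82 (SE 0.12, adjusted p = 0.00012) for Control+RYGB minus Control+Sham. The 2 RYGB groups thus lay close together, with DM+RYGB minus Control+RYGB at -0.55 (SE 0.14, adjusted p = 0.022), and both lay below Control+Sham. That last call was lost without DM+RYGB 2 (-0.48, adjusted p = 0.052) and without Control+RYGB 1 (-0.47, adjusted p = 0.13), and normexp background correction gave 0.50. The interaction of 5.43 (SE 0.18, adjusted p = 8.1e-05) was 5.51 without DM+RYGB 2 and kept an adjusted p of 0.044 with scan day as a block. DM+RYGB stayed 10.3-fold below Control+Sham (log2 change -3.37, SE 0.12, adjusted p = 3.4e-05).

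Beside Cyp2c11, 4 of 5 measured urothelium markers fell in DM+Sham minus Control+Sham, where 6.51% of all probes were called lower. In Control+RYGB minus Control+Sham 4 of these 5 markers fell, where 5.38% of all probes were called lower. Their summed signal was 0.392 to 0.515 in DM+RYGB, 0.216 to 0.224 in DM+Sham, 0.178 to 0.233 in Control+RYGB and 1.91 to 2.09 in Control+Sham, in units of the array's 75th percentile. The part of this difference in tissue markers in the Cyp2c11 result was not tested. The sum of 8 hepatocyte markers was 7.53 to 13.2, 9.48 to 9.95, 26.9 to 35.6 and 11.3 to 14.8 in the same 4 groups. The part of these markers in the Cyp2c11 result was not tested either.

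Cyp2c23, the main epoxygenase of rat kidney, fell with RYGB in diabetic rats. Its log2 level was 4.59 and 3.96 in DM+RYGB, 5.69, 5.01 and 5.03 in DM+Sham, 6.37, 5.83 and 5.89 in Control+RYGB, and 5.09, 5.22 and 4.44 in Control+Sham. Both DM+RYGB arrays lay below all DM+Sham arrays, and the Control+RYGB arrays lay above all others. The log2 change for DM+RYGB minus DM+Sham was -1.08 (SE 0.38, adjusted p = 0.048), or 2.11-fold lower. This call was lost without either DM+RYGB array (-0.76 without DM+RYGB 2 and -1.39 without DM+RYGB 1), without DM+Sham 1 (-0.74), and without Control+Sham 1, Control+Sham 2, Control+RYGB 1 or Control+RYGB 3. With only the groups compared it was lost too (adjusted p = 0.1). Between the single arrays of each group that were scanned on a shared day, the change was -0.44, and with scan day as a block it was -0.47 (adjusted p = 0.13).

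Between the RYGB groups Cyp2c23 was lower in DM+RYGB, with a log2 change of -1.84 (SE 0.38, adjusted p = 0.012) for DM+RYGB minus Control+RYGB and within-day values of -1.78 and -1.89. For Control+RYGB minus Control+Sham the log2 change was 1.2 (SE 0.34, adjusted p = 0.044). It was not called, as median scaling gave 0.88 (adjusted p = 0.089) and quantile scaling 0.33 (adjusted p = 0.13). The responses to RYGB in diabetic and control rats differed by -2.27 (SE 0.51, adjusted p = 0.022). Without DM+Sham 1 that difference was -1.94 (adjusted p = 0.061) and without Control+RYGB 1 it was -2.02 (adjusted p = 0.082), and neither was called, and with scan day as a block the adjusted p was 0.05. Leaving out Control+RYGB 1 also ended the call between the RYGB groups, with an adjusted p of 0.074. Cyp2c23 ran with Cyp4a3 over the 9 samples (Pearson correlation 0.94, a description as above).

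Cyp2j4, a P450 of rat intestine and kidney, was lower with diabetes by both of its probes. The brighter probe had log2 levels of 1.1 and 0.75 in DM+RYGB, 1.39, 1.35 and 1.33 in DM+Sham, 1.69, 1.71 and 1.59 in Control+RYGB, and 2.11, 2.11 and 1.95 in Control+Sham. The groups did not overlap, with DM+RYGB lowest, followed by DM+Sham, Control+RYGB and Control+Sham. For DM+Sham minus Control+Sham the log2 change was -0.69 (SE 0.13, adjusted p = 0.015) by this probe and -0.80 (SE 0.13, adjusted p = 0.0082) by the second, whose levels are on the plot of values by array. Without DM+Sham 1 neither was called (adjusted p = 0.066 and 0.046, the second failing in another scaling), nor was the brighter one without Control+Sham 1 (0.062) or Control+Sham 2 (0.056). Within scan days the change was -0.72 and -0.61 by the brighter probe, and with scan day as a block the adjusted p was 0.14 and 0.11.

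With RYGB the Cyp2j4 probes did not give the same calls. For DM+RYGB minus DM+Sham the log2 change was -0.43 (SE 0.14, adjusted p = 0.04) by the brighter probe and -0.10 (SE 0.14, adjusted p = 0.56) by the second. For Control+RYGB minus Control+Sham it was -0.39 (SE 0.13, adjusted p = 0.066) and -0.49 (SE 0.13, adjusted p = 0.032), so only the second was called, and not without Control+Sham 1, Control+Sham 2, DM+Sham 1 or Control+RYGB 1 (adjusted p = 0.052 to 0.11). The call in diabetic rats was lost without DM+RYGB 2 (-0.26), and without DM+Sham 1, Control+RYGB 1, Control+Sham 1 or Control+Sham 2. It was also lost with only the groups compared (adjusted p = 0.18), and the change was -0.31 (adjusted p = 0.31) with scan day as a block. Against Control+Sham, DM+RYGB was lower by both, at -1.13 (SE 0.13, adjusted p = 0.00088) and -0.90 (SE 0.13, adjusted p = 0.0016). The interactions, -0.05 and 0.39, were not called.

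Of the hydrolases, Ephx2, the soluble enzyme that converts most epoxyeicosatrienoic acids to diols, fell with RYGB in both diabetic and control rats. Its log2 level was -1.55 and -1.82 in DM+RYGB, 0.40, 0.36 and 0.36 in DM+Sham, -0.54, -0.65 and -0.64 in Control+RYGB, and 0.67, 0.57 and 0.68 in Control+Sham. Every RYGB array lay below every sham array, with the DM+RYGB arrays lowest. The log2 change was -2.06 (SE 0.13, adjusted p = 0.00026), or 4.18-fold lower, for DM+RYGB minus DM+Sham, with an adjusted p of 0.031 with only the groups compared. It was -1.23 (SE 0.12, adjusted p = 0.002), or 2.35-fold lower, for Control+RYGB minus Control+Sham.

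The fall in Ephx2 was larger in diabetic rats by -0.83 (SE 0.17, adjusted p = 0.017). This difference was lost without DM+Sham 1 (adjusted p = 0.057) and without Control+RYGB 1 (adjusted p = 0.076), had an adjusted p of 0.11 with scan day as a block, and was -0.69 (adjusted p = 0.011) without DM+RYGB 2. Diabetes alone gave -0.26 (SE 0.12, adjusted p = 0.17) in sham rats and -1.09 (SE 0.13, adjusted p = 0.0016) in RYGB rats. The change in diabetic rats was -1.91 on the scan day that held both groups and -1.93 without DM+RYGB 2, the array that carried heart transcripts. Both values rest on DM+RYGB 1 as the only DM+RYGB array. The part of the heart transcripts in the Ephx2 change was not tested.

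Ephx1, the microsomal epoxide hydrolase, which acts mainly on foreign epoxides, moved less. Its log2 level was 0.03 and -0.46 in DM+RYGB, 0.16, 0.24 and 0.29 in DM+Sham, 0.53, 0.55 and 0.55 in Control+RYGB, and 0.75, 0.68 and 0.49 in Control+Sham. The diabetic groups lay below the control groups, and Control+RYGB lay within the range of Control+Sham. It was called lower in DM+RYGB minus Control+RYGB, at -0.76 (SE 0.18, adjusted p = 0.021), and in DM+RYGB minus Control+Sham, at -0.86 (SE 0.17, adjusted p = 0.0051). Without Control+RYGB 1 the first of these had an adjusted p of 0.092. In diabetic rats RYGB gave -0.43 (SE 0.18, adjusted p = 0.084), which was not called. Without DM+RYGB 1 the value was -0.67 (adjusted p = 0.013), which was called, and without DM+RYGB 2 it was -0.18 (adjusted p = 0.28).

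**Figure D2:**
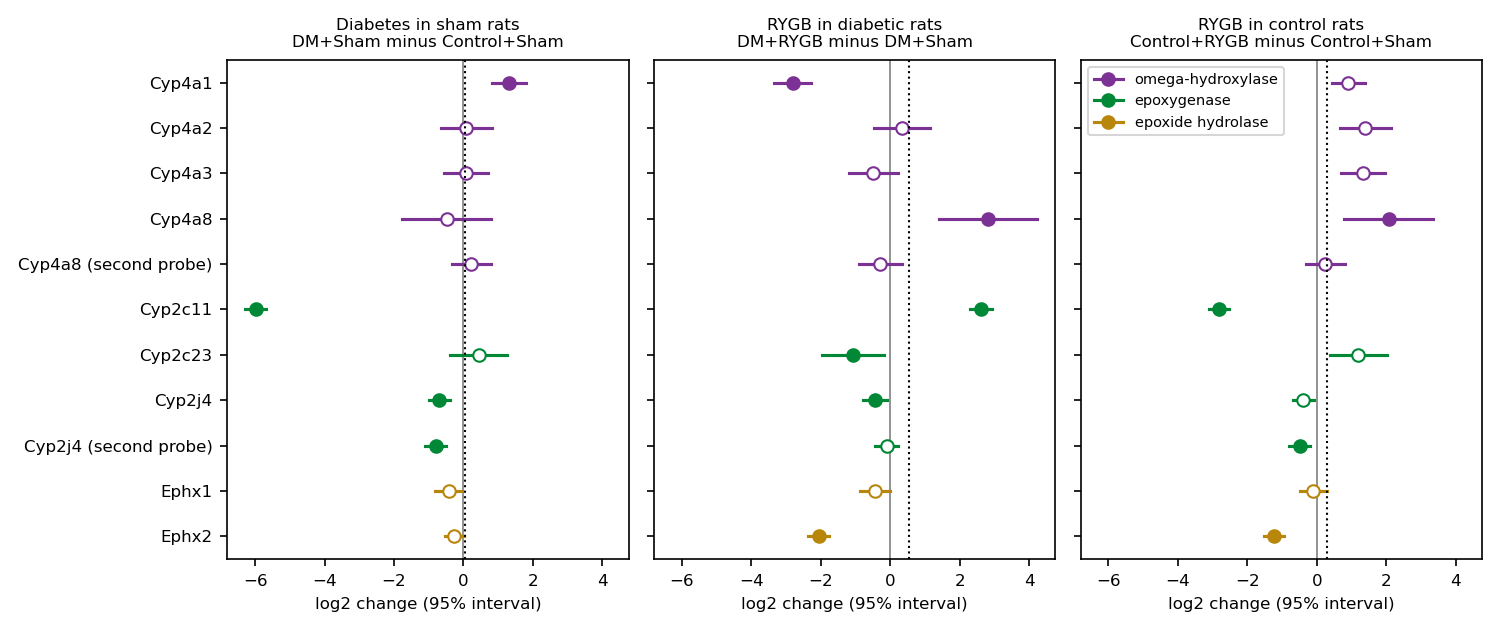
Log2 change of each probe (horizontal axis) for RYGB in diabetic rats, diabetes in sham rats and RYGB in control rats, with bars for the 95% interval. Filled points were called, open points were not, and the dotted line is the median change of all 28489 probes. Cyp2c11 stands at -5.98 with diabetes, at 2.61 with RYGB in diabetic rats and at -2.82 with RYGB in control rats.

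Set side by side by class, the omega-hydroxylases did not move as 1 block against the epoxygenases and hydrolases. For RYGB in diabetic rats the median log2 change over genes was -0.07 for the 4 omega-hydroxylases, -0.43 for the 3 epoxygenases and -1.24 for the 2 hydrolases, beside 0.55 for all probes. Of the omega-hydroxylases 1 rose and 1 fell, of the epoxygenases 1 rose and 2 fell, and of the hydrolases 1 fell. For diabetes in sham rats the class medians were 0.08, -0.69 and -0.35, beside 0.03 for all probes, with 1 of 4 omega-hydroxylases higher, 2 of 3 epoxygenases lower and neither hydrolase called. For RYGB in control rats they were 1.36, -0.39 and -0.67, beside 0.29, with 1 omega-hydroxylase higher, 1 epoxygenase lower and 1 hydrolase lower when each gene was read by its brightest probe. The omega-hydroxylase medians depended on the scaling: they were -0.67 on the median scale and -0.71 by quantiles for RYGB in diabetic rats, -0.14 by quantiles for diabetes in sham rats, and 1.05 and 0.61 for RYGB in control rats. The epoxygenase and hydrolase medians were below 0 in all 3 scalings of these comparisons.

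The mean over each class on each array, as a log2 difference from the Control+Sham mean, shows the same spread. For the omega-hydroxylases it was 0.64 and -0.20 in DM+RYGB, 0.54, -0.06 and -0.04 in DM+Sham, 1.64, 1.17 and 1.24 in Control+RYGB, and 0.08, 0.11 and -0.19 in Control+Sham. Only Control+RYGB stood clear of the other groups. For the epoxygenases it was -1.52 and -1.90 in DM+RYGB, -1.92, -2.25 and -2.24 in DM+Sham, and -0.55, -0.80 and -0.77 in Control+RYGB, and for the hydrolases it was -1.40 and -1.78, -0.36, -0.34 and -0.31, and -0.65, -0.69 and -0.69 in those groups. Both means lay below every Control+Sham array in all 3 groups, and Cyp2c11 carried most of the epoxygenase value. No p-value is given for these means, since the classes were chosen with results known.

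**Figure D3:**
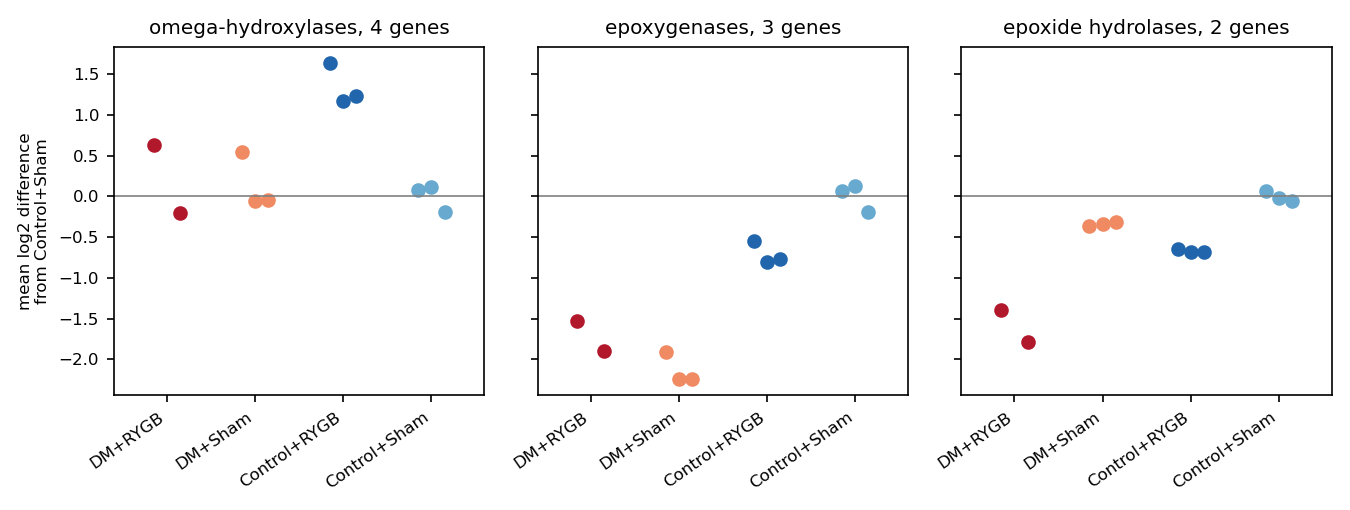
Mean log2 difference from the Control+Sham mean (vertical axis) over the genes of each class, for each array. Groups run DM+RYGB, DM+Sham, Control+RYGB and Control+Sham, and dots are arrays. The hydrolase mean was lowest in DM+RYGB (-1.40 and -1.78) and the omega-hydroxylase mean was highest in Control+RYGB (1.17 to 1.64).

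The proximal tubule, where most of these enzymes reside, differed between the same groups. Of 25 proximal tubule markers 16 fell and none rose in DM+RYGB minus DM+Sham (median log2 change -1.55), against 10.8% of all probes lower. In Control+RYGB minus Control+Sham 1 rose and none fell (median 0.74), against 6.74% of all probes higher. With diabetes in sham rats 2 rose and 2 fell (median 0.13), against 12.7% of all probes called. The part of this difference in tubule markers in the values of the members, Cyp4a1, Cyp4a2, Cyp4a3, Cyp2c23, Cyp2j4 and Ephx2 among them, was not tested. Cyp2c11 and the brighter Cyp4a8 probe rose in the comparison in which 16 of these markers fell, while the second Cyp4a8 probe had -0.28 (adjusted p = 0.38). Podocyte markers had 3 of 6 higher and distal nephron markers 3 of 10 higher in DM+RYGB minus DM+Sham, with none lower, against 10.2% of all probes higher.

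Among diabetic and control rats with RYGB, 7 of the 11 probes were called lower in DM+RYGB and none higher, against 17.4% of all probes (7.57% higher and 9.81% lower). They were Cyp4a1 (-2.40), Cyp4a3, Cyp2c23, Cyp2c11, the brighter Cyp2j4 probe (-0.74), Ephx1 and Ephx2. The Cyp2j4 call was lost without Control+RYGB 1. With only the groups compared, the calls of Cyp2c23, Cyp2c11, the brighter Cyp2j4 probe and Ephx1 were lost (adjusted p = 0.05 to 0.11). Within the days on which both groups were scanned, Cyp4a1 differed by -2.0 and -2.81 and Ephx2 by -1.0 and -1.18. In DM+RYGB minus Control+Sham 1 probe was higher (Cyp4a8, 2.34) and 6 were lower, against 23.5% of all probes (11.8% each way), and Ephx2 there was 5.01-fold lower (log2 change -2.33, adjusted p = 9e-05). The Cyp4a8 call of that comparison was lost without any 1 Control+Sham array or DM+RYGB 1. With scan day as a block no probe on the array was called there by limma, and 7 of the 11 had an unadjusted p under 0.05.

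The interaction, the change with RYGB in diabetic rats minus that in control rats, was called for 5 of 11 probes, against 14.8% of all probes (6.52% higher and 8.27% lower). It was positive for Cyp2c11 and negative for Cyp4a1, Cyp4a3, Cyp2c23 and Ephx2. All 5 were called without DM+RYGB 2 as well, but 2 of the 11 probes without DM+Sham 1, 2 without Control+RYGB 1 and 1 (Cyp2c11) with scan day as a block. The comparisons that enter it have no sample in common, but scan days and slide positions differ between them.

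**Figure D4:**
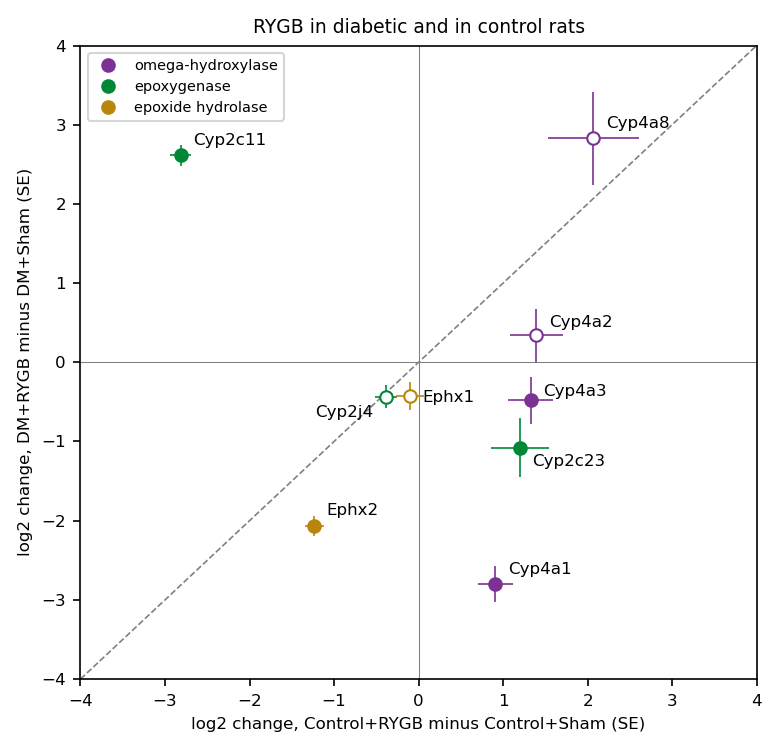
Log2 change with RYGB in diabetic rats (DM+RYGB minus DM+Sham, vertical axis) against that in control rats (Control+RYGB minus Control+Sham, horizontal axis), with SE bars. There is 1 point per gene, read by its brightest probe, so the second Cyp4a8 and Cyp2j4 probes are not shown. Filled points had a called interaction and the dashed line marks equal change. Cyp2c11 (2.61 and -2.82) and Cyp4a1 (-2.80 and 0.91) lie furthest from the line, and Ephx2 (-2.06 and -1.23) is lower on both axes.

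**Figure D5:**
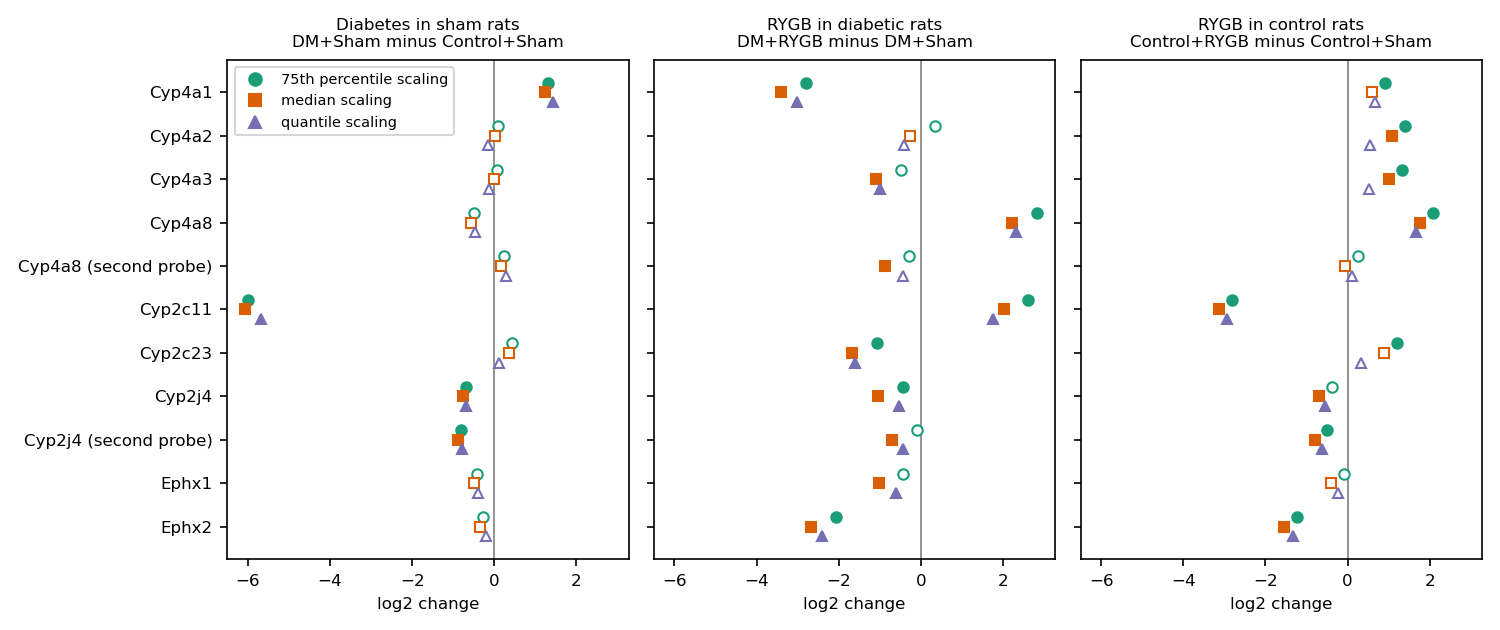
Log2 change of each probe (horizontal axis) under scaling on the 75th percentile, on the median and by quantiles, for RYGB in diabetic rats, diabetes in sham rats and RYGB in control rats. Filled points had an adjusted p under 0.05 in that scaling. In control rats Cyp4a2 gave 1.40 on the 75th percentile scale and 0.54 by quantiles, and Cyp2c11 kept its sign in all.

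Outside the members, other genes of arachidonic acid metabolism were read from lists, whose members had been chosen with results known. The list counts stand beside 20.9% of all probes called for RYGB in diabetic rats. The share was 12.7% for diabetes in sham rats and 12.1% for RYGB in control rats. Of 10 measured further CYP4 hydroxylases, 3 fell with RYGB in diabetic rats and none rose, 1 rose with diabetes in sham rats and 1 rose with RYGB in control rats. Both rises were Cyp4f4, a CYP4F fatty acid hydroxylase, with log2 levels of -4.40 and -4.79 in DM+RYGB, -3.56, -3.16 and -3.16 in DM+Sham, -3.91, -3.79 and -3.79 in Control+RYGB, and -7.04, -6.78 and -6.18 in Control+Sham. Control+Sham alone was low. Its log2 change was 3.31 (SE 0.27, adjusted p = 0.00077) for DM+Sham minus Control+Sham, 2.82 (SE 0.27, adjusted p = 0.0022) for Control+RYGB minus Control+Sham, and -1.24 (SE 0.30, adjusted p = 0.014) for DM+RYGB minus DM+Sham. Cyp4f1 (-1.19) and Cyp4f40 (-0.90) also fell in DM+RYGB minus DM+Sham.

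Of 7 other measured CYP2C and CYP2J genes, 4 rose and none fell in DM+RYGB minus DM+Sham (median log2 change 2.09, or 1.80 with a gene below background in 1 group at its bound), namely Cyp2c6v1, Cyp2c13, Cyp2j3 and Cyp2j10. In Control+RYGB minus Control+Sham 4 rose and none fell (median 2.54), namely Cyp2c6v1, Cyp2c12, Cyp2c13 and Cyp2c22, the last chosen after its values were seen. Cyp2c12 and Cyp2c22 were not well above background on any Control+Sham array, so they were at least 2.39-fold and 2.3-fold higher in Control+RYGB than the higher of their own signal and the dimmest detected signal there, and with both at these bounds the median was 1.2. Cyp2c6v1 and Cyp2c13 were thus called in both, and neither CYP2J gene was called in control rats (Cyp2j3 0.60 and Cyp2j10 0.29). A second, dimmer Cyp2j3 probe had 0.96 in DM+RYGB minus DM+Sham and -0.04 in Control+RYGB minus Control+Sham, and neither was called. It was called lower in DM+Sham minus Control+Sham (-1.01). With diabetes in sham rats 4 fell and none rose (median -0.91). Cyp2c13, a male-typical P450 of rat liver, had log2 levels of -5.51 and -5.96 in DM+RYGB, -8.11, -7.76 and -8.03 in DM+Sham, -3.19, -3.16 and -3.06 in Control+RYGB, and -6.43, -6.59 and -6.72 in Control+Sham. Every RYGB array thus lay above every sham array, unlike Cyp2c11, and 2 of the 3 DM+Sham arrays were well above background. Cyp2c6v1, a constitutive liver P450, changed by 3.09 (SE 0.38, adjusted p = 0.0016) in DM+RYGB minus DM+Sham and 3.22 (SE 0.35, adjusted p = 0.003) in Control+RYGB minus Control+Sham. In Control+RYGB, 5 of 8 hepatocyte markers also rose over Control+Sham, and their part in these values was not tested. Cyp2j3, another epoxygenase, was lower in DM+Sham minus Control+Sham by -0.91 (SE 0.15, adjusted p = 0.01).

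Of the steps around the P450 enzymes, the electron donor Por, which passes electrons to all microsomal P450 enzymes, fell by 0.59 on the log2 scale (SE 0.13, adjusted p = 0.011) in DM+RYGB minus DM+Sham. Of 9 measured phospholipases 2 rose and 2 fell there, and Pla2g2a, a secreted phospholipase A2 of inflammation, had log2 levels of -2.19 and -1.56 in DM+RYGB, -7.15, -7.09 and -6.99 in DM+Sham, -5.89, -5.93 and -5.76 in Control+RYGB, and -6.59, -6.56 and -7.07 in Control+Sham. DM+RYGB stood far above the other groups, with a log2 change of 5.23 over DM+Sham (SE 0.25, adjusted p = 0.00013). Pla2g4a, the cytosolic phospholipase A2 that frees arachidonic acid, changed by -0.49 (SE 0.09, adjusted p = 0.014) in DM+Sham minus Control+Sham and -1.10 (SE 0.09, adjusted p = 0.0012) in Control+RYGB minus Control+Sham. Of the other epoxide hydrolases 1 of 3 rose in DM+RYGB minus DM+Sham, Ephx4 at 1.54 (SE 0.24, adjusted p = 0.0032).

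On the cyclooxygenase route, 3 of 13 genes fell and none rose in DM+Sham minus Control+Sham, 1 rose and 3 fell in DM+RYGB minus DM+Sham, and 2 fell in Control+RYGB minus Control+Sham. Ptgs1, the constitutive cyclooxygenase, changed by -0.80 (SE 0.11, adjusted p = 0.0044) in DM+Sham minus Control+Sham and -1.93 (SE 0.11, adjusted p = 0.00023) in Control+RYGB minus Control+Sham. A second, dimmer Ptgs1 probe had -0.05 and -0.43 in these comparisons and was not called. Ptges, the inducible prostaglandin E synthase, rose by 1.72 (SE 0.19, adjusted p = 0.0011) in DM+RYGB minus DM+Sham, and Ptger4, a prostaglandin E receptor, rose by 1.25 there. The lipoxygenase list had 2 higher and 1 lower of 8 in DM+Sham minus Control+Sham and 1 lower in each RYGB comparison, which was Alox15b each time.

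CYP4A genes are classical targets of PPAR alpha, the nuclear receptor that induces fatty acid oxidation. Of 26 genes of a list of PPAR alpha and its targets, 1 rose and 12 fell in DM+RYGB minus DM+Sham (median log2 change -0.58, against 0.55 for all probes). Of all probes 10.2% were called higher and 10.8% lower there. With diabetes in sham rats 3 rose and 1 fell (median 0.35), where 12.7% of all probes were called. With RYGB in control rats 2 rose and 1 fell (median 0.49), where 12.1% of all probes were called. Both counts were near the share for all probes. The interaction was called lower for 10 and higher for none, against 8.27% of all probes lower and 6.52% higher. In DM+Sham minus Control+Sham the rises were led by Creb3l3, a hepatic and intestinal transcription factor of lipid metabolism, at 1.5 (SE 0.23, adjusted p = 0.0071), and Angptl4, a lipoprotein lipase inhibitor, at 1.31 (SE 0.14, adjusted p = 0.0018).

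The named genes whose levels ran most like a member's over the 9 samples were found by Pearson correlation among all probes kept by the filter, as a description of points that share arrays and scaling. For Cyp4a1 they were Gatad2a and Lpar2 (both 0.997) and Nrg1 (0.995). For Cyp4a2 they were Pbld1 (0.991), Khdrbs1 and Cbx6 (both 0.988), and for Cyp4a3 Aldh4a1 (0.995), Isoc1 (0.985) and Alpl (0.981). Cyp4a8 had Gimap9 (0.997) and App (0.996).

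For Cyp2c11 the closest were Htra1 (0.988), Mx1 and Dolpp1 (both 0.986), for Cyp2c23 Cryl1 (0.985), Cmbl and Crym (both 0.98), and for Cyp2j4 Kif18b (0.994), Akna (0.992) and Dio1 (0.99). Ephx1 had Egfr (0.986), Thpol1 (0.984) and Hmox2 (0.983), and Ephx2 had Klf5 and Zbed3 (both 0.993) and Plekhb1 (0.992). Between members, the brighter Cyp2j4 probe and Ephx1 reached 0.96, the pair of Cyp2j4 probes 0.95 and the pair of Cyp4a8 probes 0.21.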

How the data were processed

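Renal cortex RNA from 11 rat samples was hybridised to single-colour Agilent arrays. Signal intensity was extracted by the authors with Feature Extraction 11.0.1.1, per the file headers, which record background subtraction but no step that scales arrays to each other. The deposited table of log2 values, with all column medians at 7.07, was an alternative, and how the authors made it is not stated in the sources used here.

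Of 44254 spots, 1377 control spots were left out, and spots of 1 probe were averaged. Log2 signal minus each array's 75th percentile was fitted in limma 3.58.1 (R 4.3.3) with all 4 groups in 1 model and 5 residual degrees of freedom. The filter kept probes well above background on 2 or more arrays, and p-values were adjusted over all 28489 by Benjamini-Hochberg. All adjusted p-values are limma's. The members, classes, gene lists, the demand for 3 scalings, the averaging of arrays within spot noise and the scan-day block were chosen with earlier results of these data known. Leaving out both arrays of an averaged pair was added after seeing the files' values.

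Named genes are all member probes, up to 3 called genes with the largest change per list in the first 3 comparisons, and the 3 most correlated genes per member, though not every one is printed. Genes with several probes are read by the brightest. The number of arrays limits the precision. Alternatives were the deposited table, normexp background correction (offset 50), other scalings and filters, replicate and scan-day blocks, only the groups compared, and leaving out each array. Sequences are from RefSeq (GRCr8), aligned with Biopython 1.88. The fit was tested on simulated data.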

Additional observations from a re-analysis of the deposited data

Results flagged for a closer look

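The change with RYGB in diabetic rats differed from that in control rats for 5 of the 11 probes by a limma test of the difference itself, adjusted over all 28489 probes. The difference was 5.43 for Cyp2c11 (SE 0.18, adjusted p = 8.1e-05), which was higher in DM+RYGB than in DM+Sham on every array and lower in Control+RYGB than in Control+Sham on every array. It was -3.71 for Cyp4a1 (SE 0.30, adjusted p = 0.00086), -2.27 for Cyp2c23 (SE 0.51, adjusted p = 0.022) and -1.81 for Cyp4a3 (SE 0.40, adjusted p = 0.021). It was -0.83 for Ephx2 (SE 0.17, adjusted p = 0.017), which was lower with RYGB in both settings.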

How the results depend on the processing

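Of the 11 probes, 6 were called for RYGB in diabetic rats, 4 for diabetes in sham rats, 4 for RYGB in control rats, 7 for diabetes in RYGB rats, 7 for DM+RYGB against Control+Sham and 5 for the interaction. Leaving out each array in turn gave 4 to 6, 2 to 4, 2 to 8, 3 to 9, 6 to 7 and 2 to 6 calls in the same order. For RYGB in diabetic rats, median scaling alone gave 10, only the groups compared 3, and leaving out both DM+Sham 2 and 3 gave 3. For diabetes in sham rats, normexp correction, the scan-day block and leaving out both DM+Sham 2 and 3 each gave 1. For RYGB in control rats, the 75th percentile alone gave 8, the median alone 7, 11 separate arrays 9, only the groups compared 8, leaving out both Control+RYGB 2 and 3 gave 2, and normexp and the scan-day block gave 0 by limma, with 8 and 6 probes at an unadjusted p under 0.05. For diabetes in RYGB rats, normexp, the scan-day block and leaving out both Control+RYGB 2 and 3 gave 4 and only the groups compared 3. The scan-day block gave 0 for DM+RYGB against Control+Sham (7 at an unadjusted p under 0.05) and 1 for the interaction, for which leaving out both Control+RYGB 2 and 3 gave 3. The interaction needs all groups, so only the groups compared could not be run for it. Whether the replicate numbers pair the samples is not known. Of same-number pairs 5 of 15 correlated above 0.1 (median 0.045), against 7 of 30 pairs with different numbers (median -0.035). With so few arrays per group these correlations cannot decide it. With the replicate number as a block on 11 separate arrays the calls were 7, 4, 9, 9, 9 and 6 in the order above. On 11 separate arrays with no block they were 7, 4, 9, 9, 7 and 5. Single probes changed sign past a threshold in 3 cases, namely Cyp2c11 for diabetes in RYGB rats with normexp (0.50, adjusted p = 0.4), and Cyp4a2 for DM+RYGB against Control+Sham under quantile scaling (-0.58, adjusted p = 0.029) and in the deposited table (-0.68, adjusted p = 0.022). Over all probes the calls as reported were 5968, 3632, 3454, 4950, 6706 and 4213, and they ranged over the alternatives between 1491 and 15038, 92 and 7746, 0 and 7650, 1292 and 8934, 0 and 17328, and 183 and 7213. The scan-day block leaves 2 residual degrees of freedom and also counts DM+Sham 2 and 3 separately, and the cause of the other differences was not tested.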
